A study of Mus musculus with 10 samples.

Results

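Cytosolic ribosomal protein genes were examined in the transcriptome of OP9 cells. The genes were taken by name: symbols that start with Rpl or Rps and go on with a number, with an optional letter or copy number, together with Rpsa, Rplp0, Rplp1 and Rplp2, and without the Rps6k kinases and names ending in -ps. This rule took 87 of the 26888 genes in the table, 53 of the large (60S) and 34 of the small (40S) subunit. Of these, 84 lay above 0.5 RPM (reads scaled to a total of 1 M reads on genes) in at least 1 library, 51 of the large and 33 of the small subunit, among 16933 genes that did so and were tested. The 87 genes carry 83 distinct names and include all 77 ribosomal protein names listed from textbook knowledge. The 3 genes under the threshold were the paralogs Rpl3l and Rpl39l, both listed at 0 in every library, and Rps4y2, at no more than 2.35e-05 RPM.

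RNA came from 10 libraries of OP9 cells, 6 of reaggregates and 4 of flat cultures, so that these ways of growing the line can be compared. OP9 is a stromal line from mouse calvaria of the strain (C57BL/6xC3H)F2-op/op, so that every library shares the op/op genotype, a loss of the growth factor M-CSF. For reaggregates, cells were dispersed with trypsin, pelleted and kept for 48 h on a nitrocellulose filter between medium and gas, then freed with collagenase and dispase. Reaggregates 2, 4 and 6 received IL-3 and reaggregates 1, 3 and 5 did not. The labels give its dose as 200 µg/µl, and whether this unit is right could not be settled here. Flat cultures lay under medium. Cells of flat cultures 2 and 4 were labelled as from the de Bruijn lab, while the labels of flat cultures 1 and 3 and of the reaggregates name no group. According to the methods, flat cells had been kept in either the Medvinsky or the de Bruijn group, and passage number is named as a source of variance, but the labels give it for no library. No source used here says which libraries came from separate cultures, so that p-values measure the spread between these samples, which may be technical. Depth, read from the value of 1 read, ran from 7.35 to 9.43 M reads on genes. A level of 3 reads, taken as the floor for counting error only, thus equalled 0.318 to 0.408 RPM depending on the library.

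A ribosome joins a small subunit, which holds the mRNA and reads its codons, to a large subunit, which forms peptide bonds and leads the new chain out through a tunnel. Each subunit carries a fixed set of proteins in equal number, the stalk proteins P1 and P2 excepted, so that cells make the transcripts of this family at high and matched levels. Their mRNAs begin with a tract of pyrimidines that links their translation to nutrient and mTORC1 signalling, and in growing cells they make up a large part of all mRNA.

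Ribosomal protein genes took a smaller share of reads in reaggregates than in 3 of the 4 flat cultures. Together the family held between 1.51% and 2.05% of reads on genes in the 6 reaggregates, with a median of 1.90%. In flat cultures 1 to 4 it held 3.54%, 2.88%, 2.03% and 4.08%. Flat culture 3 thus lay inside the range of the reaggregates, whereas the other 3 lay above it. For the large subunit the summed level of the 6 reaggregates was 10021 ± 1241 RPM (mean ± SD) and that of the 4 flat cultures was 17251 ± 4490 RPM. For the small subunit the same sums were 8140 ± 1192 and 14052 ± 4338 RPM. In bulk RNA, fewer cells of a type and less RNA per cell cannot be told apart, and RPM is a share of reads, not an amount per cell.

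**Figure D1:**
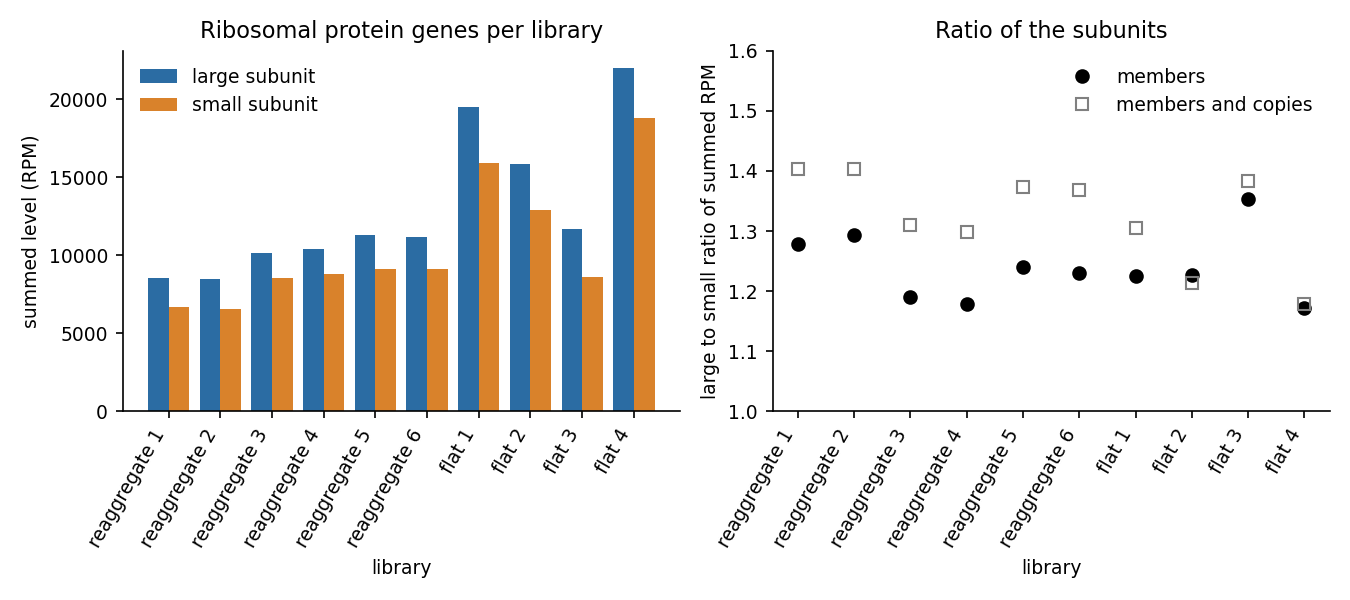
Summed RPM of large and small subunit genes in each library (left, bars) and the ratio of the sums (right, points, for the members alone and with the copies that share their reads). Flat cultures 1, 2 and 4 stand above all reaggregates in both subunits, flat culture 3 does not for the small subunit, and the ratio of the members runs from 1.17 to 1.35.

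The libraries were not evenly spaced, and this bears on every count that follows. Over the members, consecutive reaggregates (1 and 2, 3 and 4, 5 and 6, each pair with and without IL-3) differed by a root mean square of only 0.08 to 0.13 on the log2 scale, against 0.26 to 0.43 for other pairs of reaggregates. Flat culture 3 was 0.26 to 0.46 from the reaggregates but 0.57 to 1.03 from the other flat cultures. Over all genes these ranges overlapped, at 0.69 to 0.83 and 0.73 to 1.16. It was the lowest of the 4 flat cultures for 62 of 84 members and within the reaggregates' range for 46, against 2, 19 and 3 members for flat cultures 1, 2 and 4. The median SD of a member's log2 values was 0.21 among reaggregates and 0.48 among flat cultures (all genes 0.26 and 0.45).

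In reaggregates against flat cultures, 55 of 84 members were lower in limma's test at an adjusted p of at most 0.05, and 0 were higher. Over all genes tested, 15.7% were lower and 13.6% higher. At a fold change of at least 2, 10 members were lower, or 7 among those with several exons, where 6.53% of all genes were. The log2 fold change, taken on log2(RPM + 0.5), was below 0 for all 84 members, as it was for 48.3% of all genes, and it remained below 0 for all 84 under each of the 3 other scalings. Against only the de Bruijn flat cultures it was below 0 for 82, and against only those with no group named for 83. Its median was -0.71 over the members and 0.04 over all genes. Every reaggregate lay below every flat culture for 30 members, against 11.4% of all genes, and below flat cultures 1, 2 and 4 for 62, against 17.7%. The count of lower members depended on how the libraries were weighed. With consecutive reaggregates averaged, 3 values against 4, only Rps2 remained of the 55, and 2.68% of all genes were lower, whereas 47 members (9.36% of all genes) were lower when flat culture 3 was also left out, a choice made after the values were seen. Leaving out only flat culture 4 gave 27 lower members (9.63% of all genes) and only flat culture 3 gave 69 (20.2%). Against only the de Bruijn flat cultures 64 members were lower (21.6% of all genes), and against only those with no group named 15 were (11.2%).

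**Figure D2:**
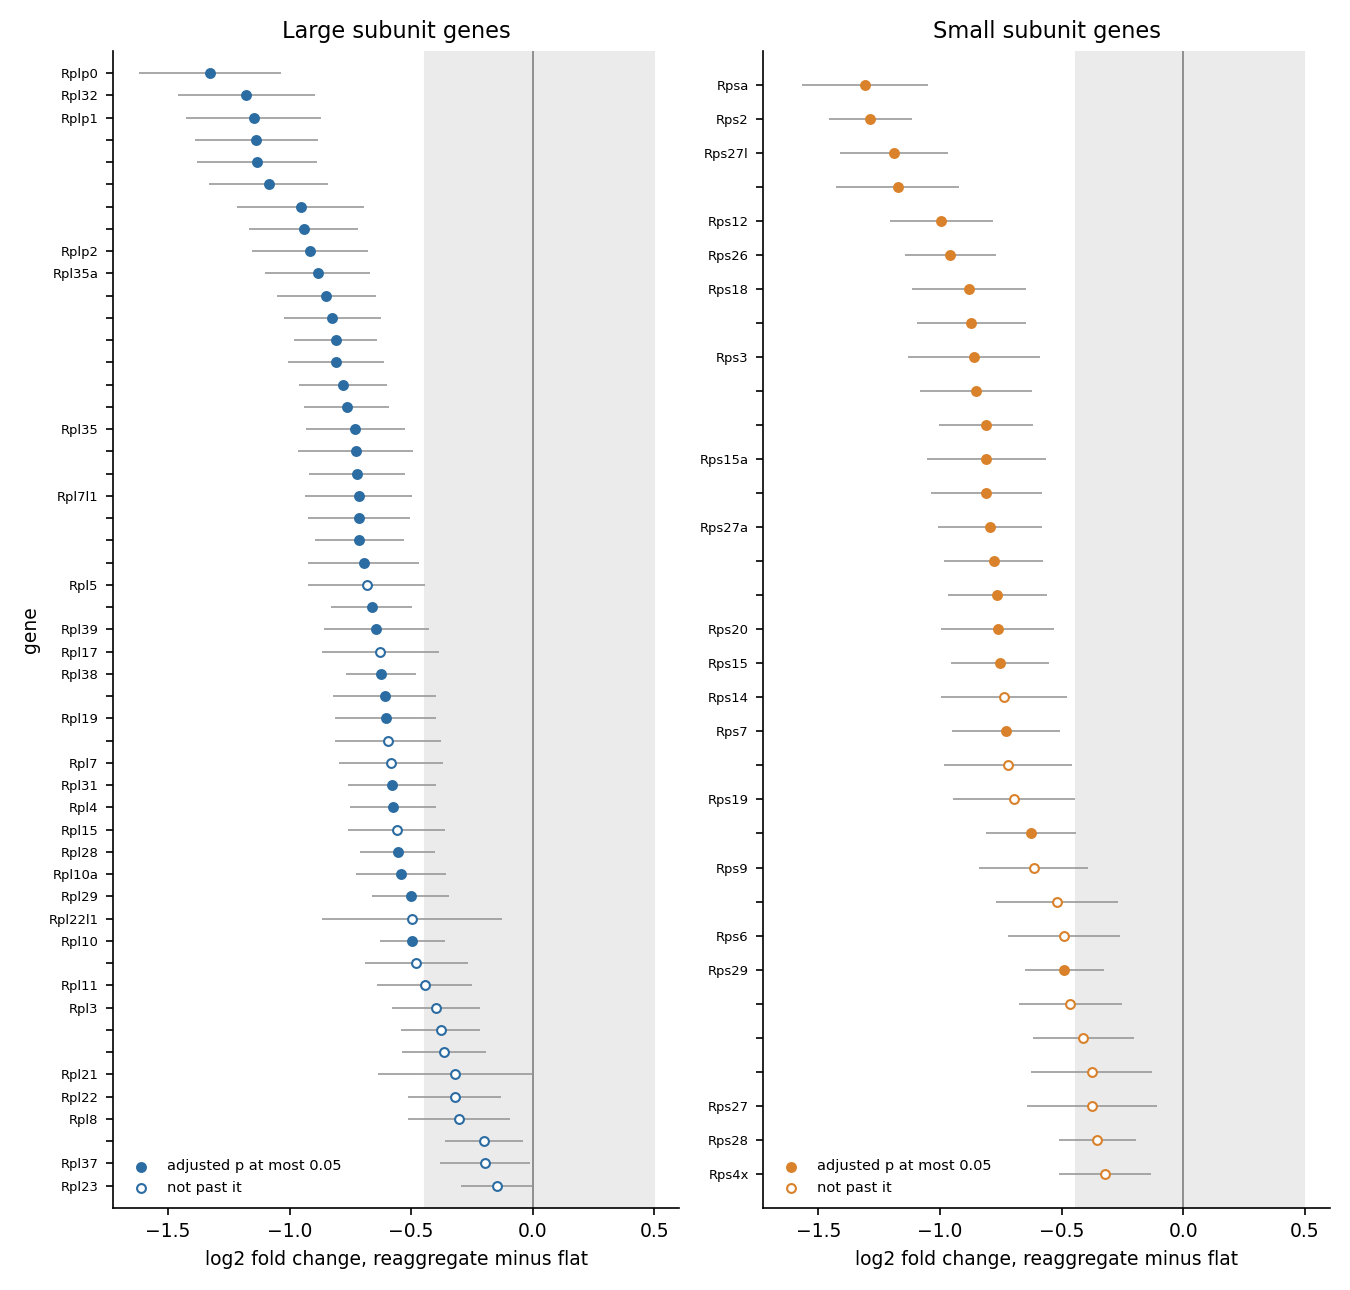
Log2 fold change of each member above 0.5 RPM, reaggregate minus flat, with its standard error, by subunit, with names for genes the text describes. Filled points passed limma's test at an adjusted p of at most 0.05, the grey band is the middle 50% of all genes tested, and every point lies below 0, from -1.33 for Rplp0 to -0.15 for Rpl23.

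The stalk of the large subunit, which recruits the GTPase factors of translation, had all 3 of its genes lower, with a median log2 fold change of -1.15. The counts in this and the short lists that follow stand beside 65.5% lower over all members and 15.7% over all genes. Rplp0 (chr5:116009476-116013736, NCBI37/mm9), the base of the stalk, was between 740 and 1170 RPM in reaggregates with a median of 888 RPM, and 2550, 2730, 1140 and 3480 RPM in flat cultures 1 to 4. Flat cultures 1, 2 and 4 were high, and flat culture 3 fell just under the highest reaggregate, so that the groups overlapped. Its log2 fold change was the lowest of the large subunit (-1.33 ± 0.29 SE, adjusted p = 0.00741, limma). Rplp1, one of the acidic proteins bound to that base, was between 312 and 425 RPM in reaggregates, with a median of 387 RPM, and 590, 1130, 476 and 1390 RPM in flat cultures. The de Bruijn cultures were the highest, and no reaggregate reached a flat culture (-1.15 ± 0.28, adjusted p = 0.0113, limma). Rplp2, its partner, was between 62.4 and 96.1 RPM in reaggregates with a median of 81.3 RPM, and 121, 198, 96.2 and 221 RPM in flat cultures. The groups did not overlap, but reaggregate 3 and flat culture 3 almost met (-0.92 ± 0.24, adjusted p = 0.0157, limma).

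Elsewhere in the large subunit, Rpl32 had the lowest log2 fold change after Rplp0. Its level was between 304 and 415 RPM in reaggregates with a median of 398.5 RPM, and 819, 915, 435 and 1510 RPM in flat cultures. All reaggregates lay below all flat cultures, by little for flat culture 3 and by most for flat culture 4 (-1.18 ± 0.28, adjusted p = 0.0108, limma). Rpl5 and Rpl11, which bind 5S rRNA and, when free of the ribosome, restrain Mdm2, gave 0 of 2 past the threshold. Rpl5 was between 128 and 194 RPM in reaggregates with a median of 172.5 RPM, and 345, 215, 163 and 394 RPM in flat cultures. Flat culture 3 lay among the reaggregates (log2 fold change -0.68 ± 0.24, adjusted p = 0.0518, limma). Rpl11 was between 109 and 155 RPM in reaggregates with a median of 118.5 RPM, and 252, 123, 164 and 176 RPM in flat cultures. Here flat culture 2 was the one within the reaggregates' range (-0.44 ± 0.20, adjusted p = 0.104, limma).

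Of the genes whose proteins line the exit tunnel, 2 of 3 were lower (Rpl4 and Rpl39, with Rpl17 at -0.63 and not past the threshold). Around the tunnel's rim, where chaperones and the signal recognition particle dock, 3 of 5 were lower (Rpl19, Rpl31 and Rpl35), with a median of -0.58. Both shares, 66.7% and 60%, lay near the 65.5% of all members. Rpl38, known in mice for a skeletal patterning defect when deficient, was between 32.2 and 40.1 RPM in reaggregates with a median of 36.5 RPM, and 68.2, 45.6, 53.9 and 60.7 RPM in flat cultures. No reaggregate overlapped a flat culture, and flat culture 2, not 3, was the lowest (-0.62 ± 0.14, adjusted p = 0.00844, limma). The smallest of the passing changes in this subunit belonged to Rpl10, a late-joining protein near the tRNA sites (-0.50 ± 0.13), Rpl29 (-0.50 ± 0.16), Rpl10a (-0.54 ± 0.18) and Rpl28 (-0.56 ± 0.15), with adjusted p between 0.0181 and 0.0452 in limma. Rpl10 and Rpl29 had no overlap between groups, while in Rpl10a flat culture 2 lay within the reaggregates' range, and in Rpl28 flat culture 1 equalled the highest reaggregate.

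In the small subunit, 3 of the 4 genes whose proteins line the path of the mRNA were lower, with a median of -0.91. Among them, Rps2 (chr17:24855061-24858874), at the mRNA entry, was between 192 and 244 RPM in reaggregates with a median of 212 RPM, and 528, 625, 360 and 629 RPM in flat cultures. All 6 reaggregates were low and close to each other, and even flat culture 3 stood clear of them (-1.29 ± 0.17, adjusted p = 5.32e-04, limma). Among the members named here for this comparison, it was the only one that stayed past the threshold in all 26 alternative settings. Rps3 and Rps26 were lower at -0.86 and -0.96, and Rps28, at -0.35, was not past the threshold. Rpsa (chr9:120036884-120041487), also known as the 67-kDa laminin receptor precursor, was between 331 and 470 RPM in reaggregates with a median of 428 RPM, and 994, 1130, 551 and 1630 RPM in flat cultures. Reaggregates were all below flat cultures, with flat culture 3 closest (-1.31 ± 0.26, adjusted p = 0.00445, limma).

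Rps6, the protein that S6 kinase phosphorylates, was between 171 and 285 RPM in reaggregates with a median of 190.5 RPM, and 438, 221, 240 and 333 RPM in flat cultures. Reaggregates 5 and 6 were above flat cultures 2 and 3, so that the groups overlapped (-0.49 ± 0.23, adjusted p = 0.123, limma). Rps27a, made as a fusion with ubiquitin, was between 69.3 and 101 RPM in reaggregates with a median of 89.3 RPM, and 180, 118, 104 and 219 RPM in flat cultures. The groups did not overlap, and flat culture 3 lay just above reaggregate 4 (-0.80 ± 0.21, adjusted p = 0.0181, limma). Rps29, with the change nearest to 0 among those that passed, was between 58.3 and 79.3 RPM in reaggregates with a median of 71.7 RPM, and 101, 108, 70.3 and 121 RPM in flat cultures. Flat culture 3 was below the reaggregates' median (-0.49 ± 0.16, adjusted p = 0.0418, limma).

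Genes mutated in Diamond-Blackfan anaemia, a failure of red cell production, are spread over both subunits. Of them 5 of 9 (55.6%) were lower, among them Rps7, Rps26 and Rpl35a, with a median of -0.70. Over all members 65.5% were lower and over all genes 15.7%, so that this share was not particular to the list. Rps19, the gene most often affected in that disease, was between 163 and 268 RPM in reaggregates with a median of 209.5 RPM, and 371, 323, 204 and 526 RPM in flat cultures. Flat culture 3 fell inside the reaggregates' range, and the change was not past the threshold (-0.70 ± 0.25, adjusted p = 0.0545, limma). Rps14, lost in the 5q- syndrome, was between 260 and 396 RPM in reaggregates with a median of 370.5 RPM, and 791, 484, 325 and 807 RPM in flat cultures. Its pattern over the libraries was the same, with flat culture 3 among the reaggregates (-0.74 ± 0.26, adjusted p = 0.0506, limma).

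**Figure D3:**
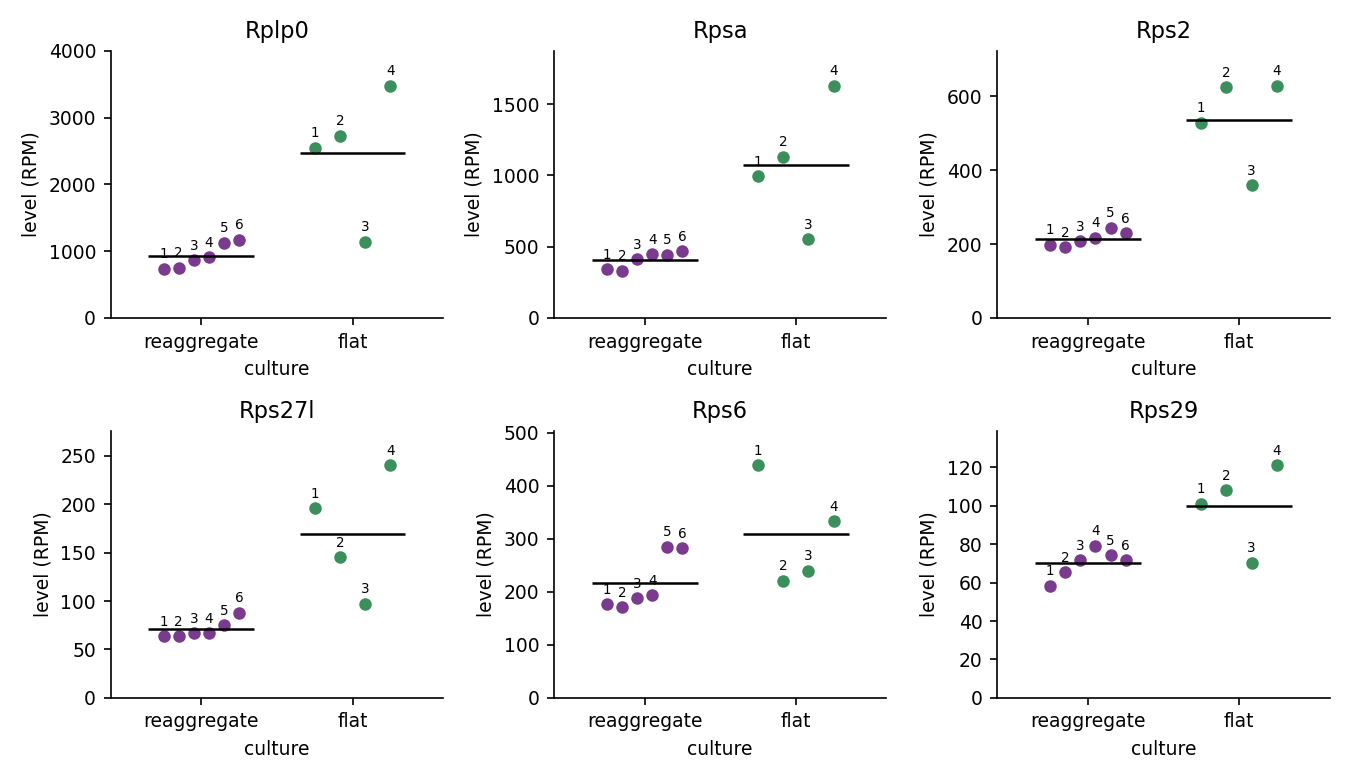
RPM of 6 members in each library, with the library number beside each point and the group mean as a line. Rpsa, Rps2 and Rps27l show no overlap between reaggregates and flat cultures, whereas flat culture 3 lies within the reaggregates' range for Rplp0 and Rps29, and flat cultures 2 and 3 do for Rps6.

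Paralogs can stand in for their parent protein in the ribosome, and 3 of the 6 found in the table were expressed. Rps27l (chr9:66793893-66797323), a target of p53 in other cells, was between 63.5 and 88.0 RPM in reaggregates with a median of 66.8 RPM, and 196, 145, 97.3 and 240 RPM in flat cultures. Flat cultures were all above reaggregates (-1.19 ± 0.22, adjusted p = 0.00354, limma). The row named Rps27 is annotated as a gene of 1 exon (Gm9846), a copy and not the parent locus, and was between 267 and 422 RPM in reaggregates with a median of 386 RPM, and 520, 460, 248 and 720 RPM in flat cultures. Flat culture 3 was the lowest of all 10 libraries (-0.38 ± 0.27, adjusted p = 0.296, limma). Of the reads on both rows, Rps27l held between 14.6% and 19.2% in reaggregates and 27.4%, 24.0%, 28.2% and 25% in flat cultures. This share set flat culture 3 with the other flat cultures, and the groups did not overlap.

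Rpl22l1, a paralog that is known to be repressed by its parent Rpl22, varied widely between libraries of the same group. In reaggregates 1 to 6 it stood at 39.2, 36.8, 65.9, 74.3, 34.3 and 39.3 RPM. The flat cultures had 42.6, 70.9, 38.9 and 153 RPM. Reaggregates 3 and 4 and both de Bruijn cultures were high, and the groups overlapped (-0.50 ± 0.37, adjusted p = 0.319, limma). Its share of the reads on Rpl22l1 and Rpl22 was 15.5%, 14.3%, 24.5%, 26.4%, 10.1% and 11.3% in reaggregates and 10.4%, 21.1%, 14.4% and 30.2% in flat cultures. Rpl22 itself was between 203 and 310 RPM in reaggregates with a median of 217 RPM, and 367, 265, 232 and 354 RPM in flat cultures (-0.32 ± 0.19, adjusted p = 0.215, limma). Consecutive reaggregates resembled each other in this share as they did over the family. Rpl7l1, whose protein acts in ribosome assembly, was between 47.6 and 79.9 RPM in reaggregates with a median of 57.3 RPM, and 155, 73.4, 79.5 and 106 RPM in flat cultures. Flat cultures 2 and 3 lay within the reaggregates' range (-0.72 ± 0.22, adjusted p = 0.0307, limma). Its share of the reads on Rpl7l1 and Rpl7 was between 8.99% and 14.4% in reaggregates and between 11.2% and 15.2% in flat cultures, and Rpl7 itself was not past the threshold (-0.58 ± 0.21, adjusted p = 0.0598). The parents of the paralogs without signal, Rpl3 (-0.40 ± 0.18), Rpl39 (-0.64 ± 0.22) and Rps4x (-0.32 ± 0.19), had adjusted p of 0.112, 0.0433 and 0.210 in limma, so that only Rpl39 passed.

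Levels could be compared between genes only after division by transcript length. Among the 77 expressed members with several exons, the most abundant of the large subunit differed between the groups. In reaggregates they were Rpl8 (1377 RPM per kb), which lies near the peptidyl transferase centre, Rplp0 (1337 RPM per kb) and Rpl23 (1112 RPM per kb). In flat cultures they were Rplp0 (3566 RPM per kb), Rplp1 (1811 RPM per kb) and Rpl32 (1779 RPM per kb). In the small subunit Rps9 and Rps15 were among the most abundant (1078 and 1003 RPM per kb over all libraries). Over all libraries the least abundant were Rpl21 (6.3 RPM per kb), Rpl7l1 (29.9 RPM per kb) and Rpl31 (61.3 RPM per kb) in the large subunit and Rps20 (125 RPM per kb), Rps7 (155 RPM per kb) and Rps12 (168 RPM per kb) in the small one, although the order differed between the groups and Rps12 was not among the 3 lowest in flat cultures alone. The lengths are those of the middle annotated coding transcript, and reads shared with copies lower some rows, so that the order is uncertain. For Rps20 that length was 3706 bases. Before division it lay between 289 and 455 RPM in reaggregates and between 371 and 887 RPM in flat cultures. These levels are above the family's median of 179 RPM, so that the low place of Rps20 rests on the length used. The most abundant genes over all libraries included Rps15, which was lower (-0.75 ± 0.20, adjusted p = 0.0176, limma), and others past no threshold, Rpl8 at -0.30 ± 0.21 and Rps9 at -0.62 ± 0.22 (adjusted p = 0.282 and 0.0577). The least abundant likewise included the called genes Rps12 (-0.99 ± 0.21, adjusted p = 0.00629), Rpl31 (-0.58 ± 0.18, adjusted p = 0.0333), Rps20 (-0.76 ± 0.23, adjusted p = 0.0302) and Rps7 (-0.73 ± 0.22, adjusted p = 0.0300), and Rpl21 (-0.32 ± 0.32, adjusted p = 0.454), which was not. All expressed members were also split by RPM, not divided by length, at the family's median of 179 RPM. Of those above and at or below it, 25 of 42 and 30 of 42 were lower, against 15.7% of all genes.

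The members of the large and small subunits were lower in similar shares. In the large subunit 34 of 51 members, or 66.7%, were lower and in the small subunit 21 of 33, or 63.6%, with 6 and 4 at a fold change of at least 2. The shares over all genes tested were 15.7% and, at that fold change, 6.53%. Of the 6 in the large subunit, however, 3 are rows of Rpl41 with 1 exon. The counts of lower members also include all 4 rows of Rpl41 and both rows of Rps13, which are copies of 1 exon. Among the members of both subunits with several exons, 49 of 77, or 63.6%, were lower. The median log2 fold change was -0.64 (quartiles -0.81 and -0.50) in the large and -0.76 (-0.86 and -0.52) in the small subunit, beside 0.04 (-0.44 and 0.50) over all genes tested. Against only the flat cultures with no group named, the medians were -0.577 in the large and -0.568 in the small subunit. Against only those of the de Bruijn lab they were -0.791 and -0.949. Without overlap between groups were 20 members of the large and 10 of the small subunit (39.2% and 30.3%), against 11.4% of all genes. When flat culture 3 was set aside these counts were 33 and 29, against 17.7% of all genes, so that the count for the small subunit moved more. The ratio of summed large to small subunit RPM was between 1.18 and 1.29 in reaggregates, with a median of 1.24, and 1.23, 1.23, 1.35 and 1.17 in flat cultures. Flat culture 3 had the highest ratio of the 10 libraries and flat culture 4 the lowest, while flat cultures 1 and 2 lay within the range of the reaggregates. Without the rows of 1 exon, flat culture 1 was at 1.173, below all reaggregates (1.204 to 1.30). Flat cultures 2, 3 and 4 were then at 1.227, 1.345 and 1.16.

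Many ribosomal protein genes have near-identical processed copies in the mouse genome, among which the authors divided reads that map to several places, so that single rows are uncertain. Of the members themselves, 8 are annotated with 1 exon: 4 rows of Rpl41, 2 of Rps13 and that of Rps27, which are copies that bear the parent's name, and the paralog Rps4y2. The 4 rows of Rpl41, a peptide of the large subunit, were all lower, between -1.14 and -0.95, but they share sequence and do not count as separate genes. Among the 77 members with several exons, 49 were lower, with a median of -0.70. Beyond the members, 146 rows bear names of copies in GENCODE vM1, of which 96 are annotated as pseudogenes and 49 as protein coding. They held between 34.7% and 37.2% of the reads on members and copies in every library. Of the 109 copy rows above 0.5 RPM, 55 (50.5%) were lower and 0 higher, with a median of -0.66. At a fold change of at least 2, 17 were lower. Over all genes tested, 15.7% were lower and 6.53% were lower at that fold change. Of all 1661 tested rows annotated as pseudogenes, 502 (30.2%) were lower, with a median of -0.42. For the copies, the values of the subunits lay further apart than for the members, but this difference was not tested. Copies of large subunit genes were lower in 31 of 75, with a median of -0.60 and 4 lower by 2-fold or more. Copies of small subunit genes were lower in 24 of 34, with a median of -0.91 and 13 lower by that much. Copies of the same parent share reads and do not count as separate genes. Among the copies, Rpsa-ps5 had the lowest log2 fold change (-1.33) and Rpl21-ps14 the highest (0.37, not past the threshold). With copies added to the parent row, an alternative chosen after the values were seen, 49 of 80 members were lower (15.4% of all genes). The ratio of large to small subunit was then between 1.30 and 1.40 in reaggregates and between 1.18 and 1.38 in flat cultures.

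No difference with IL-3 within the reaggregates passed the test in these genes. Of the 84 members 0 passed limma's test, as did 0% of all genes lower and 0% higher, and at an unadjusted p of at most 0.05 there were 0 members and 68 of all genes. The median log2 fold change was 0.00 over the members, 0.00 in the large and 0.01 in the small subunit, with values from -0.16 to 0.12. With libraries left out in turn, these medians ran from -0.095 (without reaggregate 1) to 0.095 (without reaggregate 2) in the large and from -0.128 to 0.145 in the small subunit, and between 11 and 80 members lay below 0. Leaving out a library breaks a pair of consecutive reaggregates, so that differences between pairs enter these medians. With all 6 libraries, the extremes were as follows. The extremes on the low side were Rps28 (-0.16), Rpl29 (-0.14) and Rpl28 (-0.13). On the high side they were Rps15a (0.12), Rpl15 (0.09) and Rpl22l1 (0.09). Rps28 was at 62.3, 76.5 and 81.6 RPM in reaggregates 1, 3 and 5 without IL-3 and at 55.1, 71.1 and 71 RPM in reaggregates 2, 4 and 6 with it. The groups overlapped, but within each consecutive pair the reaggregate with IL-3 was the lower one. The test above did not use these pairs. With the pairs as a block, the median SE of the members was 0.05 in place of 0.18, and 0 members passed limma's test. At an unadjusted p of at most 0.05 there were then 1 member, Rps28, and 564 of all genes.

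Within the flat cultures, the de Bruijn label was set against the cultures with no group named, 2 against 2. No member passed limma's test, while 3.87% of all genes were lower and 1.82% higher. As counts these were 656 and 309 genes, against 972 and 791 with quantile normalization. An unadjusted p of at most 0.05 was reached by 4 members, all of the large subunit and all higher in the de Bruijn cultures, among them Rplp1, Rplp2 and Rpl22l1, and by 3899 of the 16933 genes tested. The median log2 fold change was 0.22 in the large and 0.45 in the small subunit, with -0.17 over all genes, a value that moved to -0.04 with median-ratio scaling and to 0.05 with quantile normalization. The highest values were those of Rpl22l1 (1.35 ± 0.42 SE, adjusted p = 0.137, limma), Rplp1 (1.24) and Rpl32 (0.98), and the lowest those of Rpl21 (-0.74), Rpl8 (-0.55) and Rpl37 (-0.53). These medians depended on each of the 4 libraries. For the large and small subunit they were -0.26 and 0.12 without flat culture 3 and -0.14 and 0.22 without flat culture 4. They were 0.58 and 0.80 without flat culture 1, and 0.55 and 0.68 without flat culture 2. With median-ratio scaling they were 0.38 and 0.61.

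Genes that work with the ribosome were also counted in reaggregates against flat cultures, where 15.7% of all genes were lower and 13.6% higher. Of 4 ribosomal proteins under other names, 2 were lower (Rpl36al at -1.08 and Fau at -0.72), while Gnb2l1, the scaffold RACK1, at -0.69 was not past the threshold. Other mRNAs of the terminal pyrimidine class, which code for elongation and initiation factors and other proteins, were lower in 5 of 14, with a median of -0.29. Nap1l1, a histone chaperone, had the lowest value (-1.43), Eef1b2 was also lower at least 2-fold (-1.06), and Eif4b had the highest (0.39, not past the threshold). Initiation factors were lower in 11 of 25, with a median of -0.35, from Eif2s1 (-1.14) and Eif5a (-1.10) to Eif4a2 (0.18, not past the threshold). Genes of the mTORC1 pathway gave 1 lower and 4 higher of 15, with a median of 0.35. The lower one was Eif4ebp1, a translational repressor that mTORC1 inactivates (-1.48). The higher ones were Sesn1 (1.55), Tsc1 (1.09) and Ddit4 (1.07), which restrain mTORC1, and its subunit Rptor (0.74). Genes named for proteins of the mitochondrial ribosome, which is built apart from the cytosolic one, were lower in 37 of 76 and higher in 0 (1 of the lower ones, Mrpl48-ps, is annotated as a pseudogene), with a median of -0.58, from Mrpl53 (-1.91), Mrpl51 (-1.30) and Mrpl54 (-1.13) to Mrps5 (0.49, not past the threshold).

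Proliferation genes moved in the same direction. All 14 expressed genes of the list were lower, 13 at a fold change of at least 2, from Rrm2 (-3.14) to Mcm6 (-0.92), and Rrm2, which makes deoxyribonucleotides, was between 15.5 and 30.9 RPM in reaggregates. The summed level of the list was between 402 and 550 RPM in reaggregates with a median of 451 RPM, and 2356, 1137, 2081 and 1310 RPM in flat cultures. Flat culture 3, the lowest in ribosomal protein genes, was the second highest of the flat cultures in proliferation genes, and flat culture 4, the highest in ribosomal protein genes, was the third. Per length, Pcna (47.6 RPM per kb) was the most abundant gene of the list in reaggregates, followed by Top2a (39.7 RPM per kb), and the part of proliferation in the lower level of ribosomal protein genes was not tested.

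Markers were read to check the label of a stromal line. All 9 stromal markers were expressed, with a summed level between 16643 and 24732 RPM in reaggregates (median 22298 RPM) and of 6284, 8978, 13265 and 6453 RPM in flat cultures. Of these, 6 were higher in reaggregates (Col3a1 at 4.11, Col1a1 at 1.93, Col1a2 at 1.83, Pdgfrb at 1.74, Pdgfra at 1.58 and Vcam1 at 1.12), Kitl was lower (-1.01), and Col1a2 was the most abundant per length in reaggregates (1873 RPM per kb). Among blood markers Ptprc, Cd3e and Emr1 were listed at 0 in every library, and Cd68 was between 1.61 and 8.23 RPM. Their sum was between 3.09 and 7.56 RPM in reaggregates and 2.28, 8.43, 8.40 and 3.60 RPM in flat cultures. Endothelial markers summed to no more than 1.36 RPM and epithelial markers to no more than 0.479 RPM in any library, with Epcam at 0 throughout. The part of the collagen and growth factor receptor genes, which took a larger share of reads in reaggregates, in the smaller share of ribosomal protein genes was not tested.

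The members share features of gene structure that the choice by name did not use. They lie on 19 chromosomes, with 14 on chromosome 7. Rps2 and the silent Rpl3l are neighbours on chromosome 17, 5900 bases apart. Small nucleolar RNA genes, whose products guide rRNA modification and are cut from host introns, lie inside 29 of 87 members, or 33.3%, against 1.42% of 18436 protein-coding genes in the table, with 57 such genes in all. Members with and without them were lower in 17 of 29 and 38 of 55, with medians of -0.68 and -0.72, where 15.7% of all genes were lower.

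Promoters are shown because the members moved together, and because the pyrimidine tract at the start of their mRNAs is the known hallmark of the family. RefSeq promoters (GRCm38.p6, 250 bases before and 50 from the start on) were found for 58 of 83 names, as 70 promoters, after leaving out 4 names whose only rows are copies of 1 exon. The start base was C, followed by at least 4 more bases of C or T, in 12 of 70, or 17.1%, against 2.51% of all 32851 promoters. A run of at least 8 bases of C or T touched the 10 bases on either side of the start in 29 of 70, or 41.4%, against 14% of all. The share was similar for both subunits, 19 of 44 for the large and 10 of 26 for the small. The motif CTTCCG, or on the other strand CGGAAG, the core that ETS factors bind, was found in 41 of 70, or 58.6%, against 16.9% of all promoters, and GGGCGG, or on the other strand CCGCCC, a GC box, in 58.6% against 35.7%. AAGATGGC, read as GCCATCTT on the other strand, a core of YY1 sites, was in 7 of 70, or 10%, against 2.75%, and the TATA box TATAAA, or on the other strand TTTATA, in 10% against 13.6%. These matches describe letters only, and the annotated starts may be off by some bases. Some names have several promoters that overlap, such as those of Rpl35a, so that a site can count more than once. Promoters of the silent Rpl3l and Rpl39l are among the 70.

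Windows of 30 bases are given for 5 members that start with such a C and run, picked after their windows were seen, and for the 3 members with the lowest log2 fold changes. The longest run of C and T is in capitals, and the 16th letter is the annotated start.
Rps6 (chr4:86857353-86857382, minus strand): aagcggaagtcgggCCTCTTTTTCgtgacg
Rps18 (chr17:33955651-33955680, minus strand): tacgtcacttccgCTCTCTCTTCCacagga
Rpl35 (chr2:39005117-39005146, minus strand): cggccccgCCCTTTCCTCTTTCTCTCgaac
Rpl38 (chr11:114668565-114668594, plus strand): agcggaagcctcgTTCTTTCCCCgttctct
Rplp2 (chr7:141447636-141447665, plus strand): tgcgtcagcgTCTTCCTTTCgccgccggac
Rplp0 (chr5:115559452-115559481, plus strand): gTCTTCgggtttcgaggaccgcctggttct
Rpsa (chr9:120127751-120127780, plus strand): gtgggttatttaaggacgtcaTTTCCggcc
Rps2 (chr17:24720048-24720077, plus strand): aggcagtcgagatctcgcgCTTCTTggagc
In the first 5 a tract of 10 to 18 pyrimidines covers the start, and in the last 3 no tract longer than 6 lies in the window at the annotated start. The members of the first kind included Rplp2, Rps18, Rpl35 and Rpl38, which were lower in reaggregates, and Rps6, which was not past the threshold.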

How the data were processed

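RNA-seq libraries of OP9 cells were analysed from the table the authors deposited, with an RPM value for every gene in each library. The authors aligned reads to NCBI37/mm9 with TopHat 1.2.0 and Bowtie 0.12.3, summed unique reads over Ensembl 58 genes in GeneProf, divided reads with several places in proportion to the unique reads of each gene, and scaled each library to 1 M reads. A column of the authors' log2 fold change and one of their adjusted p-value for reaggregates against flat cultures, made with DESeq, were deposited beside it and not used. Between 58.9% and 60.7% of values up to 10 RPM were whole multiples of 1 read (within 2%), so no count test was run.

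Genes with a value over 0.5 RPM in any library, 16933 of them, entered the tests. Their log2(RPM + 0.5) values were fitted with limma 3.58.1 under R 4.3.3 (mean-variance trend, Benjamini-Hochberg adjustment over all of them), and the step was tested on simulated data. Groups came from the labels. The comparisons were reaggregate against flat, with against without IL-3, and de Bruijn label against no group named. Lengths, exons, positions and snoRNA genes came from GENCODE vM1, an annotation of the same assembly, which matched all 87 members. Alternatives changed the pseudocount, filter, scaling, trend, libraries and handling of copies. Figures were drawn with matplotlib 3.10.9.

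The members and gene lists were chosen with earlier results of these data known. The members named are the 5 with the largest and the 5 with the smallest log2 fold change among those that passed (with fewer than 3 passing, the 3 most extreme each way), each expressed paralog with its parent, 11 members picked for their roles, the 3 most and 3 least abundant per length in each subunit, and those under the filter. From other lists, the extremes and the genes changed at least 2-fold are named. Further names complete small counts and were chosen after their values were seen, as was Rpl23 as the end of the range. Some genes that this rule takes are not reported here.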

Additional observations from a re-analysis of the deposited data

Results flagged for a closer look

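Among 114 groups of values examined, each member named and each summed level or ratio in 4 flat cultures or 6 reaggregates, 1 held a library far from the others, where chance gives about 1 in 20. In flat culture 2 the level of Rpl21 was 3.53 RPM, while the other flat cultures lay between 8.61 and 9.65 RPM. Rpl21 is also the least abundant expressed member per length. Reads that map to several places were divided between genes and copies, and Rpl21 has copies such as Rpl21-ps14, so that its level is uncertain. Whether this division bears on flat culture 2 was not tested.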

How the results depend on the processing

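Reaggregates against flat cultures gave 55 lower members as reported. The count was 1 with consecutive reaggregates averaged (2.68% of all genes), 1 with only the reaggregates with IL-3 (2.2%) and 1 with only those without (3%), each time Rps2. By source of the flat cultures it was 15 against only those with no group named (11.2% of all genes) and 64 against only those of the de Bruijn lab (21.6%), with the same number of libraries. The cause was not tested. It was between 27 (without flat culture 4) and 69 (without flat culture 3) when each library was left out in turn. With the replicate number as a block it was 38, but the numbers do not pair the samples: libraries of the same number had correlations of their deviations of -0.04, -0.21, 0.07 and 0.16. The remaining settings gave 38 to 62, and no setting gave a higher member. No IL-3 setting gave a call among the members, though without the filter on low values 11 genes were lower and 11 higher among all genes. With consecutive reaggregates as a block, the median SE of the members was 0.05 in place of 0.18, and at an unadjusted p of at most 0.05 there were 1 member, Rps28 (-0.16, adjusted p = 0.982, limma), and 564 of all genes. For the de Bruijn label, quantile normalization gave 1 call, Rpl22l1, and the other settings 0. The difference between the medians of the subunits, 0.12, was -0.008 against only the flat cultures with no group named and between 0.07 and 0.16 when libraries were left out. Among single genes, Rpl22l1 turned to 0.18 against the flat cultures with no group named and Rpl21 to 0.049 and Rpl37 to 0.07 against those of the de Bruijn lab. With libraries left out, which each time broke a pair, IL-3 values ran from -0.227 to 0.371 for Rpl22l1, -0.027 to 0.229 for Rpl15 and -0.048 to 0.354 for Rps15a. None of these reversed values had passed a test. Depth limits only the lowest members, since the median member was at 179 RPM against a floor of no more than 0.408 RPM.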
